A study of Mus musculus with 19 samples.

Results

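The E protein and ID inhibitor genes Tcf3, Tcf12, Tcf4, Id1, Id2 and Id3 were followed through all 17 libraries of a mouse RNA sequencing study of leukemia with FLT3-ITD, an activating duplication inside the receptor tyrosine kinase FLT3, with and without the DNA methyltransferase gene Dnmt3a. They are 6 of the 23458 gene rows of the deposited count table (3 E protein genes and 3 ID genes). They were picked by symbol, with earlier results of these data known. All 6 passed the filter on low counts. In the retroviral model, C57BL/6 donor marrow of genotype Mx1-cre+;Dnmt3a+/+ (called WT) or Mx1-cre+;Dnmt3af/f (called KO) received a virus, MSCV_GFP or MSCV_FLT3-ITD-GFP, and was transplanted into irradiated recipients. CD4+CD8+ cells were then sorted. The groups are WT-GFP (n = 2), KO-GFP (n = 2), WT-ITD (n = 3) and KO-ITD (n = 4): the GFP groups are control thymocytes and the ITD groups are leukemias. All 4 retroviral groups share the Mx1-cre transgene, the viral transduction and the transplant. Bone marrow was the source of WT-ITD replicate 2 and of KO-ITD replicates 1 and 2, and thymus that of the other 8 retroviral libraries. Both KO-GFP libraries grew from ckit donor cells and all 4 KO-ITD leukemias from Sca-1 donor cells. FLT3-ITD and donor cells therefore cannot be told apart between KO-GFP and KO-ITD. For WT-GFP the donor cells were not given.

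The knock-in mice carry FLT3-ITD in 1 of their own Flt3 alleles (Flt3+/ITD), and whole marrow was sequenced without a sort. The groups are pre-leukemic marrow of genotype ER-cre-;Dnmt3af/f;Flt3+/ITD (KI-pre, n = 3), leukemias of genotype ER-cre+;Dnmt3af/+;Flt3+/ITD (KI-het, n = 2) and 1 leukemia of genotype ER-cre+;Dnmt3af/f;Flt3+/ITD (KI-hom). KI-pre carries the floxed alleles without Cre, and KI-hom has no replicate. The labels used here give no ages. The labels call the replicates biological without naming an animal for each, so a p-value here reflects how far these samples vary, which may be technical in part. KO-ITD replicates 3 and 4 and every knock-in library belong to a later submission than the others.

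Total counts were 4933890 to 25331908 per library. Dnmt3a itself read 250 to 257 counts per 1e+06 scaled counts (CPM) in WT-GFP and 144 to 207 CPM in KO-GFP, 180 to 238 CPM in WT-ITD and 53.0 to 127 CPM in KO-ITD; the gene row counts all exons, so it does not show the deleted part alone. The summed level of 8 markers of double-positive thymocytes (CD4+CD8+ cells; Cd4, Cd8a, Rag1 and others) was 10352 to 12016 CPM in the GFP libraries, 5039 to 8399 CPM in WT-ITD, and 1944 to 5911 CPM in KO-ITD. It did not exceed 20.7 CPM in knock-in marrow, where 9 granulocyte markers summed to 3025 to 17830 CPM. In KO-ITD, 8 stromal markers summed to 116 to 2435 CPM, highest in replicate 4, against 6.63 to 8.91 CPM in the GFP libraries.

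E proteins are basic helix-loop-helix transcription factors that bind DNA at E-box motifs as dimers. Tcf3 encodes E2A, Tcf12 encodes HEB and Tcf4 encodes another E protein, which is known for directing plasmacytoid dendritic cell development. In thymocytes E2A and HEB pair with each other, drive the genes of early T cell development and hold cells at the double-positive stage. ID proteins have the helix-loop-helix but not the basic region, so they dimerize with E proteins and keep them off DNA. Signals through the T cell receptor induce Id3 by way of Egr factors, BMP signals induce Id1, and Id2 is known for its part in NK cells and other innate lymphoid cells.

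The promoters of Id2 and Id3 are shown because these genes changed in opposite directions in the retroviral leukemias, and because the E-box is the motif that E proteins bind. Each is the 250 bases before the gene start on the gene's own strand, from the RefSeq table on build GRCm38.p6, with E-boxes (CANNTG on either strand, which reads the same on both) in capitals. Both strands were also searched for an Egr motif (GCGNGGGCG) and for a Stat motif (TTCNNNGAA).
Id2, chr12:25096093-25096342, minus strand: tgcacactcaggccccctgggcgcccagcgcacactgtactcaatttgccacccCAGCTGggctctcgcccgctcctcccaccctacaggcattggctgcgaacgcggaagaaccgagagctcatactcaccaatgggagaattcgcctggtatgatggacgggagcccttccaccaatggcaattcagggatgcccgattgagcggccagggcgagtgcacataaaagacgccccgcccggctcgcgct
Id3, chr4:136143572-136143821, plus strand: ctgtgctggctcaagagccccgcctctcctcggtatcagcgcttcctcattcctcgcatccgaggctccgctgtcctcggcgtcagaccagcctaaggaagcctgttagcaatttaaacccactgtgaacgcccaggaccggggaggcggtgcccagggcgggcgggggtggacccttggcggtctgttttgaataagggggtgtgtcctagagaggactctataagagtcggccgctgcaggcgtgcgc

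The Id2 window holds 1 E-box, CAGCTG, which starts 196 bases before the gene start, and the Id3 window holds 0. Of 32851 promoter windows of the same length in the table, 66.2% hold an E-box, 4.7% the Egr motif and 7.0% the Stat motif. Neither window holds the Egr or the Stat motif. Promoters of 4 of the 6 genes were searched. Id1 had no entry in the promoter table, and Tcf4 was left out because the search for the 6 genes skipped chromosome 18. These are matches of letters in a short window, and they say nothing of binding elsewhere.

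The ID genes changed and Tcf3 and Tcf12 did not pass the test when the retroviral leukemias were compared with GFP thymocytes. Id3 fell 6.04-fold and Id2 rose 3.39-fold, and the leading ID transcript per length was Id3 in every GFP library and Id2 in every retroviral leukemia. Id1 was higher in KO-ITD than in WT-ITD leukemias, and passed against thymocytes in KO-ITD alone; the test of the difference between those changes is given with Id1. The question behind these contrasts is how FLT3-ITD leukemias with the double-positive surface differ from GFP thymocytes, and whether Dnmt3a loss alters that. Every ITD library is a leukemia and no GFP library is, so FLT3-ITD and leukemia cannot be told apart. With the effect averaged over both Dnmt3a states, 28.1% of the 15508 genes tested passed an adjusted p of 0.05 (quasi-likelihood test of edgeR, adjusted by Benjamini and Hochberg over all genes), and 3 of the 6 genes did: Id2 and Id1 rose and Id3 fell.

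Id3 lies on chromosome 4 at 135699737 to 135701307, plus strand (this and the gene positions below are on build mm9, as in the deposited gene models), in 3 exons. It read 111 and 102 CPM in WT-GFP, 65.5 and 78.7 CPM in KO-GFP, 10.1, 10.4 and 47 CPM in WT-ITD and 14.6, 5.44, 5.65 and 11.9 CPM in KO-ITD. Every leukemia lay below every GFP library, and WT-ITD replicate 3 lay well above the other 6 leukemias. The fitted log2 change was -2.59 (SE 0.57, adjusted p = 0.00646 by edgeR) over both Dnmt3a states, lower in 7 of 7 leukemias. In such bulk RNA, fewer cells of a type and less RNA per cell cannot be told apart. Within the Dnmt3a-deleted groups it was -2.94 (SE 0.77, adjusted p = 0.0209 by edgeR), and the call was lost when either KO-GFP library was left out (adjusted p = 0.146 and 0.0950). Within the intact groups it was -2.24 (SE 0.83, adjusted p = 0.182 by edgeR), which did not pass.

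Id2 lies on chromosome 12 at 25778664 to 25780957, minus strand, in 3 exons. It read 50.9 and 28.2 CPM in WT-GFP, 21.7 and 45.3 CPM in KO-GFP, 153, 170 and 72.4 CPM in WT-ITD and 128, 74.0, 144 and 116 CPM in KO-ITD. Every leukemia lay above every GFP library, with WT-ITD replicate 3 and KO-ITD replicate 2 the lowest of the leukemias. The fitted log2 change was 1.76 (SE 0.32, adjusted p = 0.00261 by edgeR) over both Dnmt3a states, higher in 7 of 7 leukemias. It was 1.79 (SE 0.45, adjusted p = 0.0175 by edgeR) in the Dnmt3a-deleted groups and 1.73 (SE 0.46, adjusted p = 0.0724 by edgeR) in the intact groups, so the sizes were close and 1 of the 2 passed. Without KO-GFP replicate 1 the deleted value was 1.35 (adjusted p = 0.232), and the intact value was 2.05 (adjusted p = 0.0261) when WT-ITD replicate 3 was left out. Of the 6 genes, Id2 and Id3 had ranges that did not overlap between the 7 leukemias and the 4 GFP libraries, which 20.9% of all genes tested did.

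Id1 lies on chromosome 2 at 152562010 to 152563146, plus strand, in 2 exons. It was low in thymocytes, where WT-GFP read 1.68 and 1.90 CPM and KO-GFP 1.53 and 1.52 CPM. WT-ITD lay at the same level, with 1.48, 0.735 and 1.84 CPM. In KO-ITD it read 21.1, 24.8, 2.77 and 23.2 CPM, so 3 of the 4 leukemias were high and replicate 3 was only just above the thymocytes and WT-ITD leukemias. The fitted log2 difference between KO-ITD and WT-ITD was 3.73 (SE 0.72, adjusted p = 0.0405 by edgeR), where 0.490% of genes tested passed and Id1 was the 1 of the 6 that did. The call was lost in 7 of 15 alternative fits, among them those that left out WT-ITD replicate 1 (3.81, adjusted p = 0.165), WT-ITD replicate 2 (3.43, adjusted p = 0.234) or KO-ITD replicate 1 (3.64, adjusted p = 0.0838). In the libraries of the first submission alone it was 4.08 (adjusted p = 0.00989) and in thymus libraries alone 3.02 (adjusted p = 0.133). All 4 KO-ITD leukemias grew from Sca-1 donor cells, whereas the donor cells of WT-ITD replicates 1 to 3 were Sca-1 cells, ckit cells and unselected marrow in that order, so Dnmt3a state and donor cells are partly confounded. WT-ITD replicate 1, also from Sca-1 cells, read 1.48 CPM.

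Against KO-GFP, Id1 in KO-ITD had a log2 change of 3.55 (SE 0.85, adjusted p = 0.0146 by edgeR), and the call was lost without KO-GFP replicate 1 (adjusted p = 0.177) or replicate 2 (adjusted p = 0.0977). In that contrast 19.6% of genes tested passed, and 3 of the 6 did (Id1 and Id2 rose, Id3 fell). The KO-GFP libraries grew from ckit cells and the KO-ITD leukemias from Sca-1 cells, so FLT3-ITD and donor cells are fully confounded there. In WT-ITD against WT-GFP 2.24% of genes passed and 0 of the 6 did. There the value for Id1 was -0.40 (SE 0.75, adjusted p = 0.824 by edgeR). The interaction, which tests whether the FLT3-ITD change differed between Dnmt3a states, was 3.96 for Id1 (SE 1.09, unadjusted p = 0.00297, adjusted p = 0.800 by edgeR). 0 genes passed it (0.00%), with 838 at an unadjusted p below 0.05, and DESeq2 called 80 genes and put Id1 at 4.00 (adjusted p = 0.0394). The averaged Id1 change of 1.57 (SE 0.55, adjusted p = 0.0488 by edgeR) mixes unlike values and lost its call in 14 of 19 alternative fits.

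In the GFP thymocytes, Dnmt3a deletion gave 0 calls among all genes (0.00%, with 74 genes at an unadjusted p below 0.05; DESeq2 called 12 and limma voom 0). Id3 was lower in both KO-GFP libraries than in both WT-GFP libraries, by 0.56 on the log2 scale (value -0.56, SE 0.92, adjusted p = 1 by edgeR). Neither this nor the value of any other of the 6 genes passed.

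**Figure D1:**
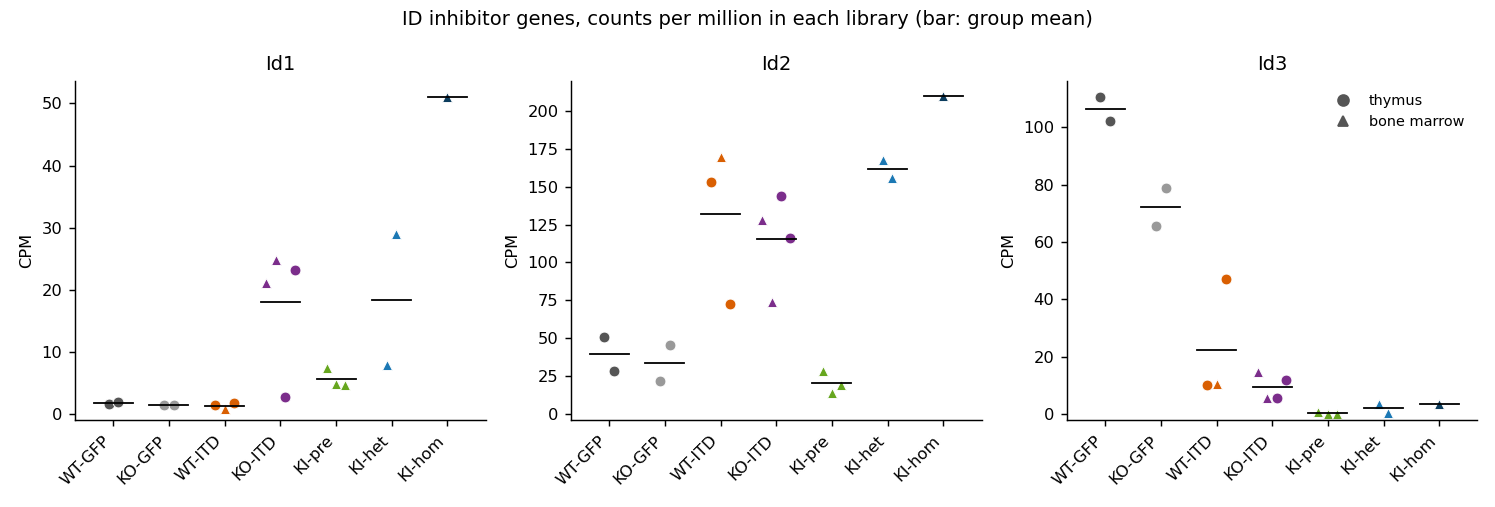
CPM of Id1, Id2 and Id3 (vertical axes, linear, 1 point per library) in the 7 groups, with circles for thymus, triangles for bone marrow and a bar for the group mean. Id3 is high in the 4 GFP libraries (65.5 to 111 CPM) and Id2 is high in the leukemias (72.4 to 210 CPM), while Id1 is above 20 CPM in 3 of 4 KO-ITD libraries.

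Tcf12 lies on chromosome 9 at 71692059 to 71959626, minus strand. It was the most abundant of the 6 per length of exon in all 11 retroviral libraries. It read 706 and 881 CPM in WT-GFP, 747 and 677 CPM in KO-GFP, 678, 878 and 584 CPM in WT-ITD and 690, 786, 579 and 586 CPM in KO-ITD. The groups overlapped throughout. The averaged log2 change was -0.13 (SE 0.15, adjusted p = 0.525 by edgeR), and the value of KO-ITD against WT-ITD was -0.11 (SE 0.18, adjusted p = 0.760 by edgeR).

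Tcf3 lies on chromosome 10 at 79871910 to 79896398, minus strand. It read 281 and 320 CPM in WT-GFP, 294 and 275 CPM in KO-GFP, 356, 367 and 221 CPM in WT-ITD and 291, 318, 215 and 210 CPM in KO-ITD. Groups overlapped again, and WT-ITD replicate 3 and KO-ITD replicates 3 and 4 were the 3 lowest. All 3 came from thymus, as did WT-ITD replicate 1 (356 CPM) and the GFP libraries (275 to 320 CPM). The averaged log2 change was -0.03 (SE 0.18, adjusted p = 0.912 by edgeR). Across the 11 retroviral libraries log2 CPM of Tcf3 and Tcf12 rose and fell together (Pearson r = 0.845), and those of Id2 and Id3 moved against each other (r = -0.806); both are descriptions over libraries that share groups.

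Tcf4, on chromosome 18 at 69504146 to 69847621, plus strand, was closely grouped in thymocytes, where WT-GFP read 50.3 and 53.3 CPM and KO-GFP 54.9 and 55.6 CPM. It was lower in all 3 WT-ITD leukemias, at 19.6, 28.9 and 36.8 CPM, and scattered in KO-ITD, at 14.1, 39.4, 46.3 and 97.6 CPM. The WT-ITD value was -0.87 (SE 0.67, adjusted p = 0.538 by edgeR) and the averaged value -0.52 (SE 0.46, adjusted p = 0.418 by edgeR), which did not pass. In the libraries of the first submission alone the averaged value was -0.94 (adjusted p = 0.0387). KO-ITD replicate 4, which had the highest Tcf4, also had the highest stromal marker sum, and the part of stroma in that value was not tested.

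**Figure D2:**
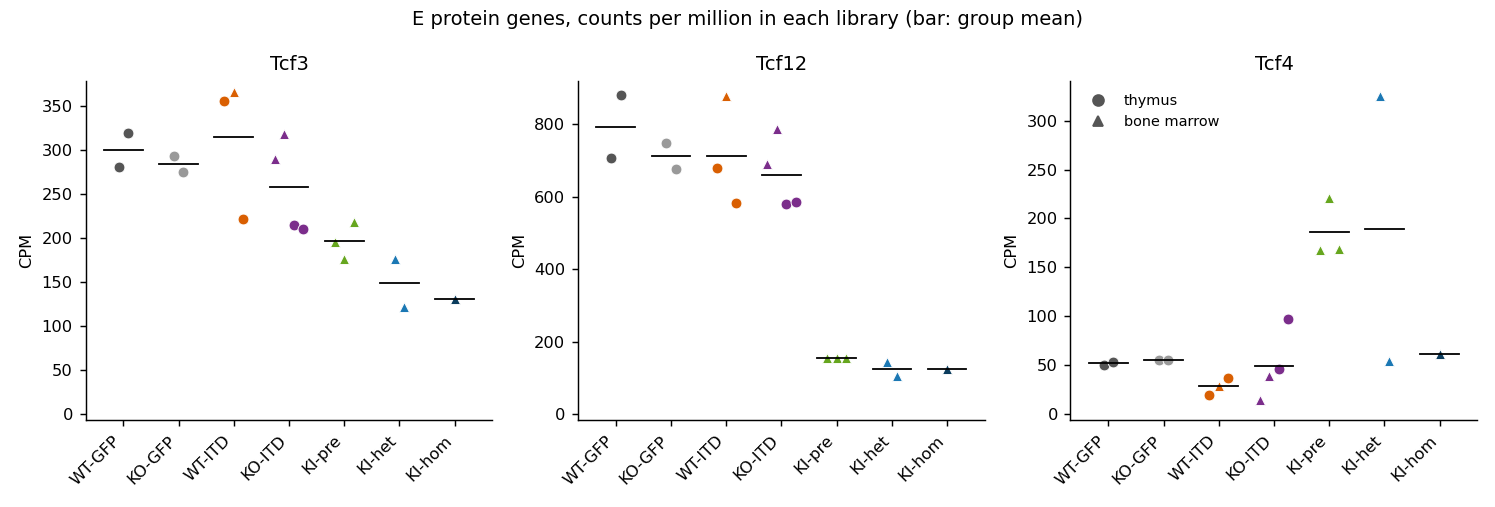
CPM of Tcf3, Tcf12 and Tcf4 (vertical axes, linear, 1 point per library) in the 7 groups, with circles for thymus, triangles for bone marrow and a bar for the group mean. Tcf12 lies between 579 and 881 CPM in every retroviral library and between 105 and 154 CPM in every knock-in library.

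**Figure D3:**
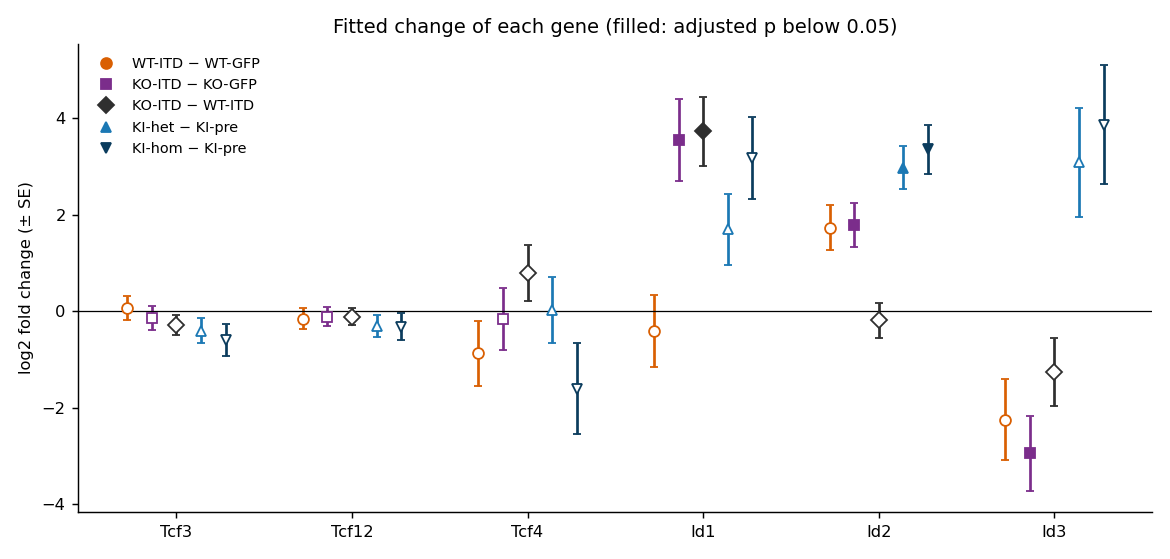
Fitted log2 fold change with its SE (vertical axis) for each gene in 5 contrasts, filled where the adjusted p was below 0.05. The values for Tcf3 and Tcf12 lie between -0.59 and 0.07, whereas those for Id2 lie between 1.73 and 3.35 in the 4 contrasts of leukemias with non-leukemic cells.

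Levels per length of merged exon allow the genes to be set beside each other. Summed over the 3 E protein genes and the 3 ID genes, the ratio of ID to E transcripts was 0.702 and 0.486 in WT-GFP and 0.368 and 0.548 in KO-GFP. It was 0.559, 0.517 and 0.593 in WT-ITD and 0.633, 0.364, 0.673 and 0.689 in KO-ITD, which overlaps the thymocytes. The make-up of the ID sum differed where its size did not: Id3 was 68.9% to 81.5% of it in GFP libraries, and Id2 was 52.6% to 92.6% in the 7 leukemias. WT-ITD replicate 3 stood between, with Id2 at 52.6% and Id3 at 45.5%. Id1 was at most 1.93% of the sum in GFP and WT-ITD libraries, and 16.6%, 29.9%, 2.49% and 19.7% in KO-ITD replicates 1 to 4. These ratios compare RNA and not protein.

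**Figure D4:**
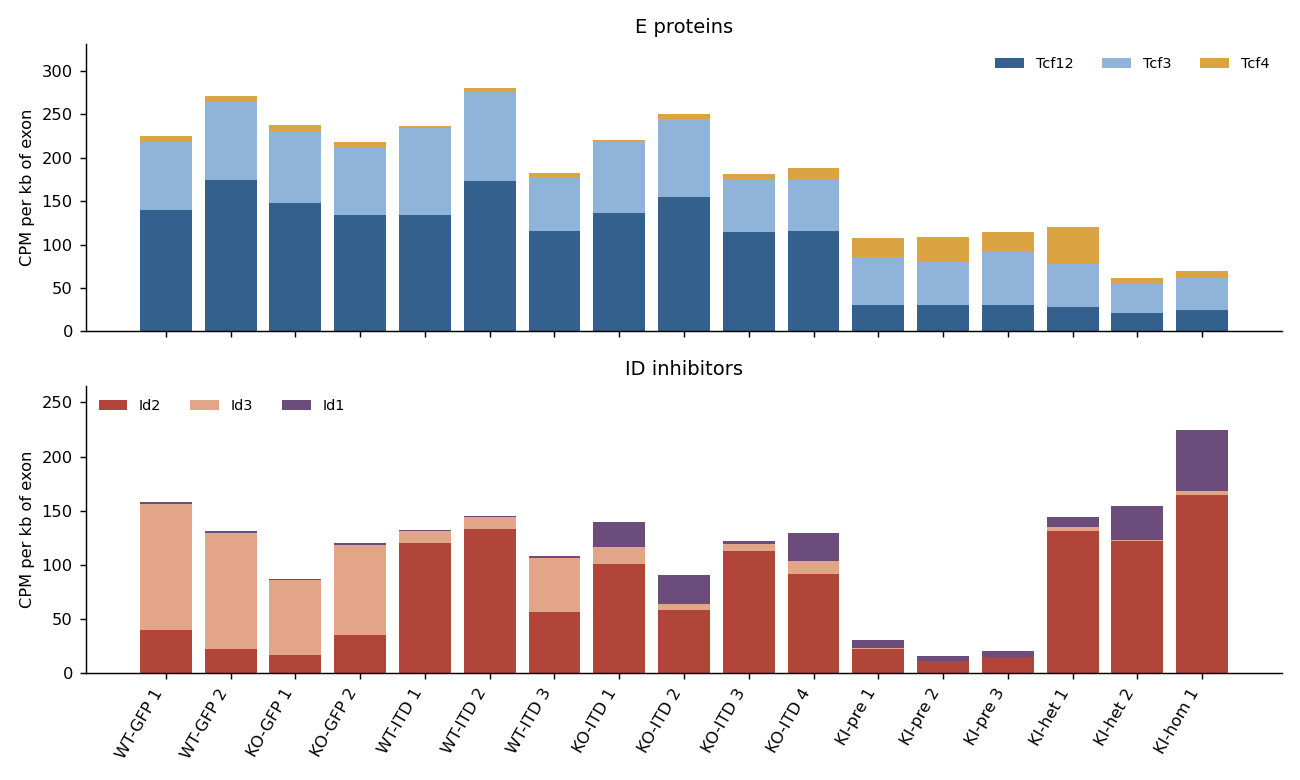
Level per kilobase of merged exon (vertical axes, CPM per kb) of the E protein genes (upper bars) and ID genes (lower bars), stacked, in each of the 17 libraries. In the retroviral libraries the ID bars pass from mostly Id3 to mostly Id2 at like heights, and in the knock-in leukemias the ID bars exceed the E bars, with ID-to-E ratios of 1.19, 2.50 and 3.25.

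Markers of other cell types were set beside these results. The summed stromal markers were 20.4, 3.62 and 111 CPM in WT-ITD replicates 1 to 3 and 219, 116, 573 and 2435 CPM in KO-ITD replicates 1 to 4. The 9 NK and innate lymphoid markers summed to 99.7 to 153 CPM in GFP libraries and 313 to 3310 CPM in the leukemias. Gene by gene they went both ways. Over both Dnmt3a states, where 28.1% of all genes passed, 1 of the 9 rose and 2 fell, a share near that of all genes. Their median was -0.42 against 0.13 over all genes tested. Their median was -1.63 in WT-ITD against WT-GFP and 0.87 in KO-ITD against KO-GFP. The granzyme gene Gzma was the largest part in each leukemia (159 to 365 CPM in WT-ITD and 315 to 3037 CPM in KO-ITD), the cytokine receptor gene Il2rb added 75.1 to 138 CPM in WT-ITD, and the defining receptor gene Ncr1 was at or near 0 (at most 0.246 CPM). The 8 endothelial markers summed to 69.2 to 128 CPM in the leukemias and 143 to 186 CPM in the GFP libraries, but this sum was mostly Pecam1, which fell over both Dnmt3a states (-0.80). Of the other endothelial markers, Vwf (3.30) and Emcn (6.02) rose from near 0, and the median of the 8 was 2.32.

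Myeloid and dendritic markers were read as well. Over both Dnmt3a states 1 of the 8 monocyte markers and 0 of the 7 dendritic markers passed. Of the 9 granulocyte markers 6 rose and 0 fell over both Dnmt3a states, where 28.1% of all genes passed. They summed to 2.04 to 55.5 CPM in GFP libraries, 818, 18.9 and 15.9 CPM in WT-ITD and 130 to 1008 CPM in KO-ITD. The 8 monocyte markers summed to 52.4 to 70.7 CPM in GFP libraries and 42.8 to 212 CPM in 6 of the leukemias, with 1553 CPM in KO-ITD replicate 4. The 7 dendritic markers summed to 255 to 383 CPM in GFP libraries, and to 1126 CPM in WT-ITD replicate 3, which stood apart for Id2 and Id3. In KO-ITD replicates 3 and 4 that sum was 696 and 433 CPM, and in the other 4 leukemias 22.8 to 76.1 CPM. The part of these cells in the ID values was not tested. Of the 8 stromal markers 7 rose in KO-ITD against KO-GFP, where 19.6% of all genes passed. The part of stroma in the Id1 and Id2 values was not tested. The sum of double-positive markers was lower in the leukemias, as Id3 was, and their part in its fall was not tested.

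Upstream of the ID genes, 17 genes of the signals that induce them were counted. The early growth response factors, which carry T cell receptor signals to Id3, were lower in all 7 leukemias than in all 4 GFP libraries. Of all genes tested, 20.9% had ranges that did not overlap between these libraries, in either direction. Egr1 read 118 to 154 CPM in the 4 GFP libraries, and 7.63, 2.82 and 6.63 CPM in WT-ITD and 2.55, 1.87, 4.09 and 25.0 CPM in KO-ITD. It fell by 4.61 on the log2 scale in WT-ITD against WT-GFP (value -4.61, SE 1.04, adjusted p = 0.0391 by edgeR). Egr1 was the 1 of 17 to pass there, where 2.24% of all genes passed. In KO-ITD against KO-GFP, where 19.6% of all genes passed, 0 of 17 rose and 5 fell: Egr2 (-4.79), Egr3 (-4.75), Egr1 (-3.84), the BMP receptor gene Bmpr2 (-1.86) and Stat5b (-1.39), which encodes a factor activated by FLT3-ITD and cytokines. The median of the 17 was -0.25, against 0.19 over all genes tested. In WT-ITD the median of the 17 was -0.97, against 0.03 over all genes tested.

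Among 14 genes that E proteins raise in T cells, the changes went both ways. In WT-ITD against WT-GFP, where 2.24% of all genes passed, 0 rose and 1 fell, Cd4 (-1.24, SE 0.29, adjusted p = 0.0439 by edgeR). In KO-ITD against KO-GFP, where 19.6% of all genes passed, 3 rose. They were the cell cycle inhibitor gene Cdkn1a (4.19), the pre-T cell receptor gene Ptcra (3.03) and the receptor gene Notch1 (2.30). In that contrast 4 fell, among them the homing receptor gene Ccr9 (-4.96), the co-receptor gene Cd4 (-2.23) and the transcription factor gene Ets1 (-1.34). Ptcra read 44.5 to 62.4 CPM in GFP thymocytes and 356 to 757 CPM in 6 of the 7 leukemias, with KO-ITD replicate 3 at 33.8 CPM. Rag1, which encodes the recombinase of antigen receptor genes, read 4679 to 5921 CPM in GFP thymocytes and 269 to 3938 CPM in the leukemias, and did not pass in KO-ITD against KO-GFP (-1.53, SE 0.77, adjusted p = 0.160 by edgeR). Medians of the 14 were -0.65 in WT-ITD against 0.03 over all genes, and -1.07 in KO-ITD against 0.19.

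Of 6 genes that E proteins hold down in double-positive cells, 0 passed in either FLT3-ITD contrast (medians -0.76 and -0.27). Of 9 B lineage targets 0 passed as well (medians -0.71 and 1.14). Of 9 genes tied to Tcf4 in plasmacytoid dendritic cells, 0 passed in WT-ITD. Spib (4.36) and Runx2 (4.00), both transcription factor genes, rose in KO-ITD against KO-GFP. Of all genes tested, 2.24% passed in WT-ITD and 19.6% in KO-ITD. Siglech, the defining receptor gene of those cells, was at most 1.78 CPM in these leukemias, although the sum of the 7 plasmacytoid and other dendritic markers reached 1126 CPM, mostly from the antigen presentation genes Cd74 and H2-Aa.

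E proteins also pair with tissue-restricted helix-loop-helix factors, and LMO proteins bridge such pairs into complexes. Of 17 genes of this kind 15 could be tested. In WT-ITD against WT-GFP, where 2.24% of all genes passed, 2 rose, the repressor genes Bhlhe40 (4.14) and Hes1 (3.06). In KO-ITD against KO-GFP, where 19.6% of all genes passed, 5 rose and 2 fell. Hes1 (3.91), Lmo2 (3.85), Bhlhe40 (3.28) and Lyl1 (2.92) rose, and Lmo4 (-2.87) and Cbfa2t2 (-0.75) fell. Tal1, a T cell leukemia gene, also rose, from at most 0.101 CPM in KO-GFP to 8.78, 58.1, 1.92 and 11.7 CPM in KO-ITD; it was 27.8 CPM in WT-ITD replicate 1 and 0.184 CPM in both other WT-ITD libraries. Between KO-ITD and WT-ITD, where 0.490% of all genes passed, the 1 gene of the 15 to pass was Lmo4 (-3.78, SE 0.61, adjusted p = 0.0158 by edgeR). It read 7.38, 8.68, 7.58 and 21.1 CPM in KO-ITD and 220, 215 and 25.5 CPM in WT-ITD. WT-ITD replicate 3 lay with the KO-ITD libraries for Lmo4, as it lay toward the thymocytes for Id2 and Id3. Of 9 erythroid markers (red cell genes) 6 rose in KO-ITD against KO-GFP. They summed to 14.8 to 139 CPM in GFP libraries, 619 CPM in WT-ITD replicate 1, 69.4 and 97.2 CPM in the other WT-ITD libraries and 456 to 1483 CPM in KO-ITD, and their part in the Tal1 values was not tested.

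**Figure D5:**
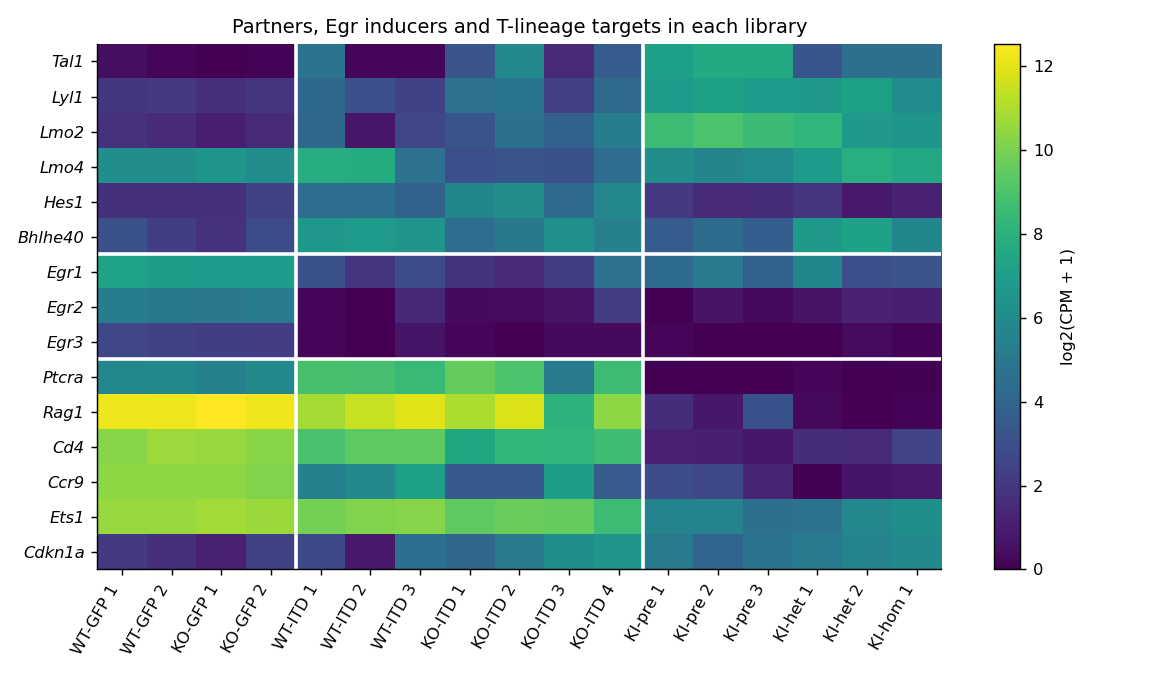
Level of listed genes as log2(CPM + 1) (colour) in each of the 17 libraries (columns; white lines part the GFP, retroviral leukemia and knock-in libraries), with partners on top, Egr genes in the middle and T-lineage targets below. Egr1, Egr2 and Egr3 are darker in all 7 retroviral leukemias than in the 4 GFP libraries, and Hes1 and Bhlhe40 are brighter there. Ranges did not overlap between these libraries in 20.9% of all genes tested.

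In the knock-in model Id2 was again higher in the leukemias than in the non-leukemic cells. It read 28.3, 14 and 19.4 CPM in KI-pre, 167 and 156 CPM in KI-het and 210 CPM in KI-hom, with no overlap. The share of all genes whose ranges part these libraries was not counted, here or for the genes below. The log2 change was 2.98 in KI-het (SE 0.44, adjusted p = 0.00843 by edgeR) and 3.35 in KI-hom (SE 0.50, adjusted p = 0.00812 by edgeR). Id2 was the 1 of the 6 genes to pass in each contrast, where 5.0% and 3.01% of all genes did. The KI-het call was lost, at adjusted p = 0.0510, without KI-pre replicate 2. These contrasts share the KI-pre libraries, and KI-hom, with 1 library, borrows its spread from the groups with replicates. KI-pre lacks Cre and every knock-in leukemia carries it, so leukemia, Cre and Dnmt3a state cannot be told apart here. The Dnmt3a row read 130 to 153 CPM in KI-pre, 47.4 to 55.0 CPM in KI-het and 36.5 CPM in KI-hom.

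Id1 read 7.47, 4.90 and 4.68 CPM in KI-pre, 7.82 and 29.1 CPM in KI-het and 51.1 CPM in KI-hom. All 3 leukemias lay above the pre-leukemic marrow, KI-het replicate 1 only just. The values were 1.70 (SE 0.73, adjusted p = 0.171) and 3.17 (SE 0.85, adjusted p = 0.0600), and neither passed edgeR's test. Id3 was close to absent in this marrow. Its reads were 4, 0 and 3 counts in KI-pre (0.711, 0 and 0.128 CPM), and its level was 3.59 and 0.429 CPM in KI-het and 3.48 CPM in KI-hom. A count of 0 in KI-pre replicate 2 allows up to 3 counts. Its fitted changes of 3.09 and 3.87 did not pass (adjusted p = 0.114 and 0.102 by edgeR).

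Tcf3 read 196, 176 and 219 CPM in KI-pre, 176 and 121 CPM in KI-het and 131 CPM in KI-hom, and Tcf12 read 154, 154 and 154 CPM, 144 and 105 CPM, and 124 CPM. All 3 leukemias lay below KI-pre for Tcf12. For Tcf3, KI-het replicate 1 was level with KI-pre replicate 2 and both other leukemias lay below KI-pre. The lowest fitted change was that of Tcf3 in KI-hom (-0.59, SE 0.34, adjusted p = 0.341 by edgeR), and 0 of these values passed. Tcf4 read 168, 221 and 168 CPM in KI-pre and 61.3 CPM in KI-hom, and parted the KI-het replicates at 325 and 54.5 CPM. The dendritic marker sum was 1278 and 202 CPM in those replicates, 697, 365 and 521 CPM in KI-pre and 301 CPM in KI-hom, and its part in the Tcf4 values was not tested. The KI-het value of 0.03 (SE 0.68) averages these unlike libraries.

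The ratio of ID to E transcripts was 0.290, 0.15 and 0.180 in KI-pre, and 1.19 and 2.50 in KI-het and 3.25 in KI-hom, with no overlap; it has no test of its own. Granulocyte markers summed to 3025 to 4682 CPM in KI-pre and to 3537 and 17830 CPM in KI-het replicates 1 and 2. Id2 read 167 and 156 CPM in those replicates. Monocyte markers summed to 157 to 270 CPM in KI-pre and 494 to 1547 CPM in KI-het. In KI-het 0 of the 9 granulocyte and 0 of the 8 monocyte markers passed, with medians of 4.10 and 2.90 against 0.05 over all genes. The part of cell composition in the Id2 result of this unsorted marrow was not tested. Of the listed genes, Bhlhe40 (3.06) and Lmo1 (2.80) rose in KI-het, Stat5a fell in KI-het and KI-hom (-1.35 and -1.35), and Smad5 fell in KI-hom (-1.64). Cd3e and Cd3g, the receptor chains of T cells, rose in both at low level (at most 5.52 CPM in the knock-in leukemias), Cd4 (2.30) and Cxcr4 (1.96) rose in KI-hom, and the B cell coactivator gene Pou2af1 (-5.51) fell in KI-het.

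The 2 models differ in how FLT3-ITD is expressed, in the Cre transgene, in the cell sort, and partly in Dnmt3a state, tissue and submission. These cannot be told apart. Between knock-in and retroviral leukemias 32.1% of genes passed and 5 of the 6 genes did: Tcf12 fell (-2.47, SE 0.21, adjusted p = 7.14e-06 by edgeR), Id3 fell (-2.45), Tcf3 fell (-1.03), and Id1 (2.63) and Tcf4 (1.53) rose. Id2 did not pass (0.58, SE 0.33, adjusted p = 0.201 by edgeR). The Tcf4 call was lost in 5 of 15 alternative fits. It was 0.63 (adjusted p = 0.329) without KI-het replicate 1, and the call was also lost without WT-ITD replicate 1 or 2 or KO-ITD replicate 2 (adjusted p = 0.0546 to 0.0703). Likewise the Id3 call was lost without KI-het replicate 2 (-2.03, adjusted p = 0.0586). Tcf12 accounted for 56.5% to 64.2% of the E protein sum per length in retroviral libraries and 23.6% to 35.3% in knock-in marrow.

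Pre-leukemic marrow against GFP thymocytes showed like differences with 42.4% of genes passing, 4 of the 6 among them. Tcf12 fell (-2.29), Id3 fell (-8.52, a value that rests on 7 reads in KI-pre), and Tcf4 (1.80) and Id1 (1.77) rose. The Tcf4 call was lost without any 1 of the 4 GFP libraries or KI-pre replicate 2 (adjusted p = 0.0617 to 0.0669), and the Id1 call without any 1 of the 7 libraries (adjusted p = 0.0584 to 0.117). Tcf3 missed the threshold (-0.57, SE 0.22, adjusted p = 0.0510 by edgeR).

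By mean level the groups ran, for Id2, from KI-hom (210 CPM) through KI-het (162 CPM), WT-ITD (132 CPM), KO-ITD (116 CPM), WT-GFP (39.6 CPM) and KO-GFP (33.5 CPM) to KI-pre (20.5 CPM). Neighbours in that order overlapped except KI-hom with KI-het and KO-ITD with WT-GFP. For Id3 the order ran from WT-GFP (106 CPM) and KO-GFP (72.1 CPM) through WT-ITD (22.5 CPM) and KO-ITD (9.41 CPM) to KI-hom (3.48 CPM), KI-het (2.01 CPM) and KI-pre (0.280 CPM), and WT-ITD overlapped KO-ITD, as the 3 knock-in groups overlapped their neighbours among themselves. For Id1 it ran from KI-hom (51.1 CPM) through KI-het (18.4 CPM), KO-ITD (18 CPM), KI-pre (5.68 CPM), WT-GFP (1.79 CPM) and KO-GFP (1.53 CPM) to WT-ITD (1.35 CPM), where KI-het overlapped KO-ITD, KO-ITD overlapped KI-pre, KO-GFP overlapped WT-ITD and the other neighbours did not overlap.

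For Tcf12 the 4 retroviral groups (660 to 793 CPM by mean) overlapped one another and stood apart from KI-pre (154 CPM), KI-het (125 CPM) and KI-hom (124 CPM). For Tcf3 the order was WT-ITD (315 CPM), WT-GFP (300.1 CPM), KO-GFP (284 CPM), KO-ITD (259 CPM), KI-pre (197 CPM), KI-het (149 CPM) and KI-hom (131 CPM), and neighbours overlapped except KI-pre and KI-het, whose ranges met at 176 CPM. For Tcf4 it was KI-het (189.7 CPM), KI-pre (186 CPM), KI-hom (61.3 CPM), KO-GFP (55.3 CPM), WT-GFP (51.8 CPM), KO-ITD (49.4 CPM) and WT-ITD (28.4 CPM), where KI-het overlapped KI-pre, and KO-ITD overlapped both WT-GFP and WT-ITD, and the other neighbours did not overlap.

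The transcript table adds the forms of the E protein genes. The alternative bHLH exons of Tcf3 give E12 (upstream exon, chromosome 10, 79875572 to 79875807) and E47 (downstream exon, 79873143 to 79873369). Transcripts with the upstream exon took 16.8% to 23.2% of the gene in GFP libraries, 20.3% to 34.3% in retroviral leukemias and 21.6% to 38.3% in knock-in marrow, so the downstream exon led in all 17 libraries. The 2 Tcf4 models differ in their first exon. The model with the upstream first exon fell over both Dnmt3a states, by 1.05 on the log2 scale (value -1.05, SE 0.29, adjusted p = 0.0257 by edgeR, where 18.3% of the 20550 transcripts tested passed), while the other had a value of 0.13 (SE 0.65). That call was lost without either WT-GFP library, either KO-GFP library or WT-ITD replicate 1 (adjusted p = 0.0581 to 0.101), and whether the 2 models differed was not tested. For Tcf12, the short form took 0.696% and 44.3% of the gene in the 2 WT-GFP libraries and 2.36% and 54.4% in the 2 KO-GFP libraries, so the estimated split was not repeatable between replicates and no comparison of it is made.

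The genes whose log2 CPM most resembled each of the 6 over the 11 retroviral libraries, of 9820 screened, were these. For Id2 they were Cdh1 (Pearson r = 0.967), Dtx4 (0.966) and Mphosph6 (0.960), and for Id3 Chrna9 (0.975), Fas (0.954) and Cd247 (0.944). For Id1 they were Slc45a3 (0.950), Spib (0.944) and Hpse (0.936). For Tcf12 they were Spg11 (0.910), Gnptab (0.889) and Wiz (0.888), for Tcf3 Tsnax (0.950), Aasdh (0.937) and Slc25a36 (0.936), and for Tcf4 Fam117b (0.928), Picalm (0.923) and Man2a1 (0.916). Cdh1, which encodes E-cadherin, averaged 4.63 CPM in GFP libraries and 86.1 CPM in the leukemias, and Fas, which encodes a death receptor, averaged 116 and 29.6 CPM. The 11 libraries share groups, tissues and submissions, and the highest of so many correlations is high by selection.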

How the data were processed

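Estimated counts per gene and per transcript, which the authors deposited for 17 libraries (19 GEO samples; the technical runs of each WT-GFP library share a column), were analysed. The submitters' processing notes name build mm9, the aligner TopHat2 (2.0.10), Cufflinks (2.1.1) and Cuffdiff (2.1.1 or 2.2.1). The counting step and its strand setting were not given in the sources used here. Among nonzero gene values, 98.12% to 98.54% were whole within 0.001, and all were rounded. The deposited FPKM files were not used here.

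In R 4.3.3 with edgeR 4.0.16, filterByExpr kept 15508 genes (20550 transcripts), libraries were scaled by TMM (factors 0.943 to 1.08), and 1 quasi-likelihood model with 7 group means gave every contrast, two-sided, with Benjamini-Hochberg adjustment over all genes and a threshold of 0.05. CPM are counts per 1e+06 scaled counts; SE come from the F statistic. Groups, tissue and submission were read from the labels. Alternatives were DESeq2 1.42.0 size factors or test, limma 3.58.1 voom, no filter, fewer groups, a replicate block, first submission, thymus alone, and each library left out; those of the Tcf4 transcripts were chosen after seeing the data. The script was tested on simulated data. Replicates of a group all differed by more than sampling noise (lowest chi-square per degree of freedom 8.40).

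The 6 genes and the lists were chosen with earlier results of these data known. Named are the 6 genes, up to 6 passing genes per list and contrast by size of change, and per gene the 3 with the highest Pearson correlation (log2 CPM with a prior count of 2, mean CPM at least 5); Rag1, Siglech, Ncr1, Gzma, Il2rb, Pecam1, Vwf, Emcn, Cd74, H2-Aa and Cbfa2t2 were named after their values were seen. The value of 1 listed gene is not reported here.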

Additional observations from a re-analysis of the deposited data

Results flagged for a closer look

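In the 4 KO-ITD leukemias, Id1 in replicate 3 was 2.77 CPM, far below the other 3 (21.1 to 24.8 CPM). Its gap to the nearest of them was 0.832 of the whole range of the group, just above Dixon's 95% critical value for 4 samples; chance flags about 1 in 20 groups, and 6 genes were looked at. The library came from thymus, in the later submission, and had 8597919 counts. It also had the highest sum of NK and innate lymphoid markers (3310 CPM) and the lowest sum of double-positive markers (1944 CPM) of the retroviral libraries, and Rag1 and Ptcra were lowest there. Their part in the Id1 value was not tested.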

How the results depend on the processing

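The Id2 rise and the Id3 fall averaged over Dnmt3a states passed in 19 of 19 alternatives (1.54 to 2.07 and -3.15 to -2.42), the Id1 rise in 5 of 19 (1.41 to 1.77). Over all 6 genes, of 685 alternative values 590 kept direction and side of the threshold, 52 lost and 14 gained a call and 29 changed sign, none of them a value that had passed. With the replicate number as a block, Tcf3 and Tcf12 with Dnmt3a deleted were 0.039 and 0.017, and averaged Tcf3 0.092. In the first submission these were 0.11, 0.063 and 0.099, and KO-ITD against WT-ITD was 0.054 for Tcf12 and -0.074 for Tcf4. In thymus libraries Tcf3 in WT-ITD was -0.043, Tcf4 with Dnmt3a deleted 0.43 and Id2 in KO-ITD against WT-ITD 0.25. Tcf4 in KI-het was -0.011 with DESeq2 size factors, -0.011 with DESeq2 and -0.45 with limma voom. Leaving out 1 library, values ranged from -0.11 to 0.30 (Tcf3 in WT-ITD), -0.33 to 0.014 (Tcf12 in WT-ITD), -0.15 to 0.080 (averaged Tcf3), -0.26 to 0.066 (Tcf12, KO-ITD against WT-ITD), -0.51 to 0.035 (Id2, the same contrast), -0.73 to 0.14 (Tcf4 with Dnmt3a deleted) and -1.77 to 0.81 (Tcf4 in KI-het). The cause was not tested.

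Counts of genes called moved more. DESeq2 called 1425 genes in WT-ITD, 5015 in KO-ITD, 1288 between them, 12 in thymocytes, 80 for the interaction, 2383 in KI-het and 1819 in KI-hom, against 347, 3047, 76, 0, 0, 775 and 467. limma voom called 876 in WT-ITD, 185 between the leukemias and 881 in KI-hom. Fits of only the groups compared called 904 in WT-ITD, 439 in KO-ITD, 0 between them, 3 in thymocytes, 157 in KI-het, 3676 in KI-hom and 2776 between models (4979 in the fit of all groups). The first submission gave 1268 in WT-ITD, 246 between the leukemias and 13 for the interaction. With 1 library left out the counts were 23 to 607 (WT-ITD), 147 to 3954 (KO-ITD), 1597 to 4881 (averaged), 10 to 641 (between leukemias), 0 to 39 (interaction), 38 to 1246 (KI-het) and 36 to 91 (KI-hom). A group left with 1 library was assumed to vary like the others.

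The labels share replicate numbers across groups. Of 33 same-numbered pairs 3 had correlated deviations above 0.1 (range -0.287 to 0.369). The values for WT-ITD with KO-ITD were 0.159, 0.369 and 0.082 for replicates 1 to 3. Groups of 2 libraries give mirrored deviations, and differently numbered pairs were not compared. The check therefore cannot decide whether the numbers pair the samples. The replicate block gave 567 genes in WT-ITD and lost the Id1 calls between leukemias (adjusted p = 0.116) and averaged over Dnmt3a states (adjusted p = 0.0711). Low counts limit Id1 in thymocytes and Id3 in knock-in marrow, and intervals of counts cover counting error only.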
